A study of Saccharomyces cerevisiae BY4741 with 5 samples.

Results

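The comparison described here sets Ssd1–HTP after heat shock against the untagged control, over the transcripts with a mean of at least 10 counts in the 2 libraries at 42°C. This rule took 3046 of the 5090 transcripts in the count table, and these held 97.4% of the counts in both libraries at 42°C, 91.2% and 91.4% of the counts at 30°C and 88.7% of those in the control. A mean of exactly 10 counts, which is the edge of the rule, was held by 73 members, and a mean of 9.5 by 73 transcripts just outside it. CRAC (cross-linking and analysis of cDNA) uses ultraviolet light to bond proteins to the RNA they touch, recovers 1 protein by its tag under denaturing conditions and sequences the RNA fragments attached to it. Clones 3 and 4 of a *Saccharomyces cerevisiae* BY4741 strain, in which Ssd1 carries a C-terminal HTP tag followed by a *K. lactis* 3′ end, were grown at 30°C in synthetic medium without tryptophan and shifted to 42°C for 16 min. The same clones were also cross-linked at 30°C without the shift. The control was a single library of BY4741 with no tagged protein, grown at 30°C, so that no untagged background was measured after heat shock. A change of background with temperature and a change of Ssd1 binding therefore cannot be told apart in these counts. mRNA abundance was not analysed here, and the values are CRAC counts, not enrichments over mRNA. The study did compare its CRAC reads with RNA-seq from matched conditions. It reports that mRNAs of heat shock proteins rose strongly in abundance and showed no enriched Ssd1 binding after allowance for that rise.

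Ssd1 is a cytoplasmic RNA-binding protein related to the RNase II family that no longer degrades RNA. It is known to hold mRNAs of cell wall remodelling enzymes in check, above all at their 5′ untranslated regions, and is controlled by the kinase Cbk1 at the growing bud. Heat shock switches the yeast transcriptome within minutes: the factors Hsf1 and Msn2 with Msn4 induce chaperones, trehalose synthesis and antioxidant enzymes, while transcripts of ribosomal proteins decline.

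The RNA that the study used to measure binding to Ssd1 is shown here because it spells out letters that recur under Ssd1, on a cell wall transcript whose share of counts was lower at 42°C than at 30°C. It comes from the upstream untranslated part of SUN4 (chromosome XIV), and the capitals mark CCAACU at positions 4 to 9 from the 5′ end and, at positions 16 to 23, a match to the pattern C, any base, C or U, U, C, any base, C or U, U.
SUN4 probe: cuuCCAACUaauuuuCACUCCUUuaa

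The libraries at 42°C had 169549 counts for clone 3 and 413502 for clone 4, those at 30°C had 176962 and 111824, and the control had 3921, which is 43.2 and 105 times fewer than the libraries at 42°C. Counts fell on 3799 and 4486 transcripts at 42°C, on 4026 and 3458 at 30°C and on 560 in the control. Of the 3046 members, 457 had a count in the control and 2589 (85.0%) had none. Where a transcript had no count in the control, 3 counts, or 0.0765% of that library, were taken as the limit of its share there. The exact Clopper-Pearson 95% interval for 0 of 3921 counts reaches slightly higher, to 0.0940%. At 42°C, 97 members without control counts were above the limit of 3 counts. Among the 2545 transcripts with the lowest Ssd1–HTP shares, 109 had counts in the control, with a mean of 4.31 and a median of 4. If each of these were 1 fragment, 3 fragments would amount to 12.9 counts or 0.330%, which is given as a stricter limit. LEU2 and URA3, which BY4741 lacks, had no counts in any library, although the tagged strains carry a URA3 marker with the tag, and MET17, which it also lacks, had at most 1. The a-specific pheromone transcript MFA1 had 34 and 31 counts in heat-shocked clones, 111 and 131 in unshocked clones and none in untagged cells. SSD1 itself had 209 and 302 counts in heat-shocked clones, 95 and 81 in unshocked clones and 2 in untagged cells and was called in none of the 3 comparisons (edgeR, adjusted p of 0.721 for 42°C against the control).

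Members were compared as shares of each library's total, with edgeR's quasi-likelihood test on all 5 libraries in 3 groups and Benjamini-Hochberg adjustment over the 3046 members. A transcript was called at an adjusted p under 0.05. The spread in this test comes from the Ssd1–HTP libraries, because the control is a single library, and for 2 libraries against 1 an exact permutation test of a single transcript cannot give a two-sided p under 0.333. After heat shock, 35 of 3046 members (1.15%) were higher than in the control and 96 (3.15%) were lower. With the replicate block, which pairs the libraries of a clone, there were 63 higher and 171 lower. Clone differences at 42°C and at 30°C were not correlated over the members (r = -0.01). Lower adjusted p-values with the block, here and below, are therefore not read as support from the pairing. At 30°C, 12 of the same members (0.394%) were higher than in the control and 29 (0.952%) lower. Between the temperatures, 90 members (2.95%) were higher at 42°C than at 30°C and 82 (2.69%) were lower. The rule for members uses only the counts at 42°C and so leaves out transcripts counted mainly at 30°C, which favours the higher direction. With no count minimum, 143 were higher and 205 lower. Both comparisons with the control use the same control library and are not independent of each other.

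The direction of the comparison with the control depended on how the libraries were scaled. With shares of totals, 26.7% of the calls after heat shock were in the higher direction. With TMM, which sets equal the middle of the transcripts counted in both libraries compared, 200 were higher and 3 lower (98.5% higher). Against the control, this middle can come only from transcripts with a count there, which 457 of the members had. Its scaling factors amount to a shift of 2.92 in the log2 ratio of 42°C to the control. For transcripts with control counts the fitted log2 fold change moved by about that, as in CCW12 from 1.56 to 4.50. For transcripts without control counts, such as APA1 and HSP150, it hardly moved. DESeq2 with its own size factors, which use only transcripts counted in every library, gave 250 higher and 7 lower. All 35 transcripts called higher by shares were also called higher by both. Counts of calls against the control are given below by shares of totals, with those of other scalings beside the gene lists. TMM moved the comparison of 42°C with 30°C by only -0.02.

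**Figure D1:**
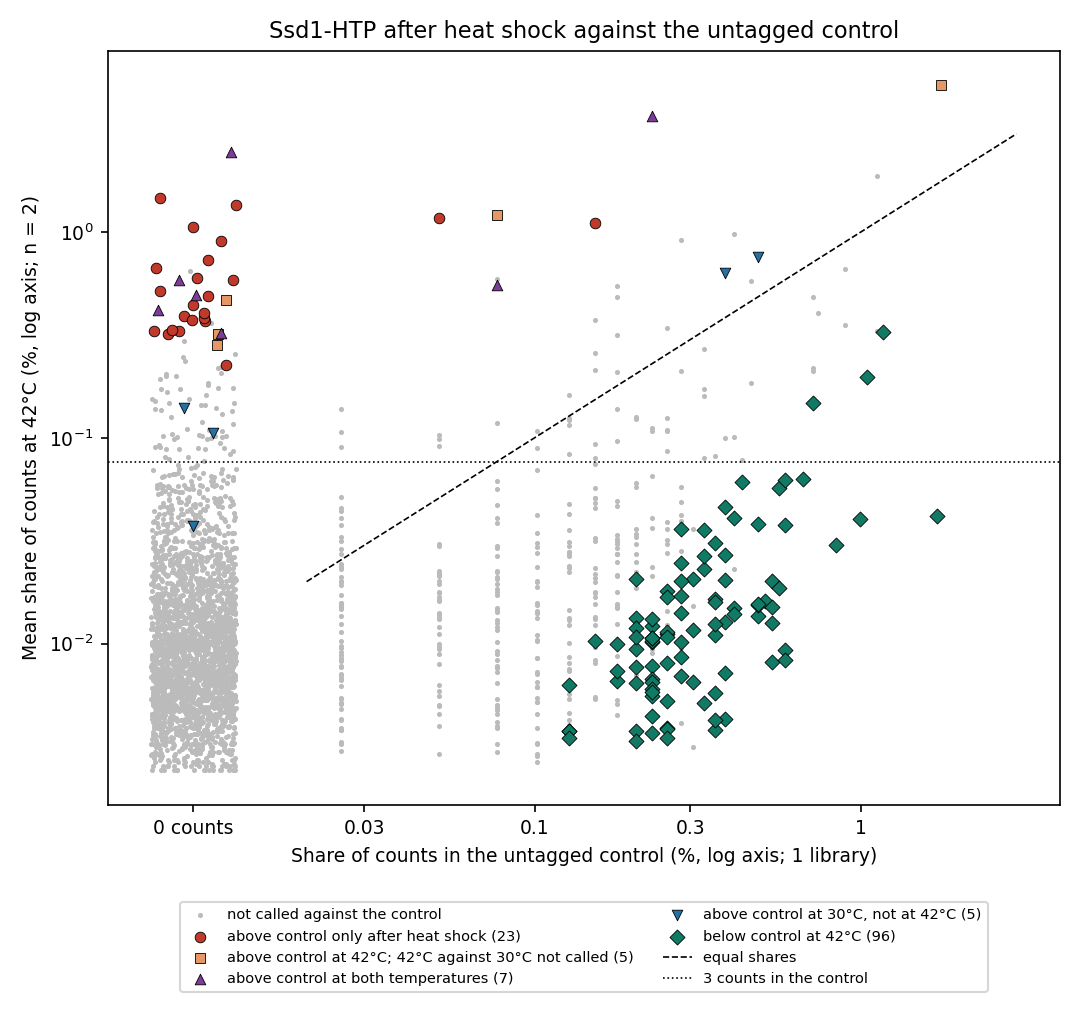
Mean share of counts at 42°C (vertical, %, log axis, n = 2) against the share in the control (horizontal, %, log axis, 1 library), 1 point per member. Members without control counts stand in the strip at the left with random horizontal spread. The 23 transcripts above the control only after heat shock lie between 0.226% and 1.46% on the vertical axis, and all but HSC82 and SSA1 are in the strip.

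Of the 35 transcripts above the control at 42°C, 23 met the rule for standing above background only after heat shock: higher at 42°C than in the control, not called at 30°C against the control, and higher at 42°C than at 30°C (0.755% of the members meet all 3 conditions). Of these, 13 encode chaperones or other heat shock proteins, and the others include TSL1 of trehalose synthesis, the hexose kinases HXK1 and GLK1, the aldose reductase GRE3 and the polyubiquitin gene UBI4. SPO24, IRA2, APA1, ECL1 and YBR085C-A belonged to none of the gene lists. Together the 23 held 13.7% and 15.4% of the counts at 42°C, 1.17% and 1.10% at 30°C, and 8 of 3921 counts in the control (0.204%, exact Clopper-Pearson 95% interval 0.0881 to 0.402%, counting error only). Since the rule uses these comparisons, these sums describe the 23 and are no test of them. In each of the 23, both libraries at 42°C lay above both at 30°C. Their mean shares ran from 0.226% to 1.46% at 42°C (median 0.490%) and from 0.00770% to 0.208% at 30°C (median 0.0292%).

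For 21 of the 23, the control had no counts, and all 21 stood above the limit of 3 counts at 42°C, by at least 2.96-fold to at least 19.1-fold. At 30°C only SPO24 was above that limit. With the control set to 10 counts (0.255%), 20 of the 21 remained above it at 42°C, and with 3 fragments (0.330%) 18 did. The bounds of these 18 at 3 fragments ran from 1.00-fold to 4.42-fold. Bounds given below for single transcripts use 3 counts, which is less than the mean of 4.31 control counts on rarely covered transcripts. They are therefore not strict if several counts came from the same fragment. With the replicate block the rule took 43 transcripts, 22 of the 23 among them. The exception was SPO24, which was then also called at 30°C. Fits without a 42°C clone left a single library in that group and took their spread from the 30°C clones alone. That a call is kept in such a fit therefore says little about its firmness.

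**Figure D2:**
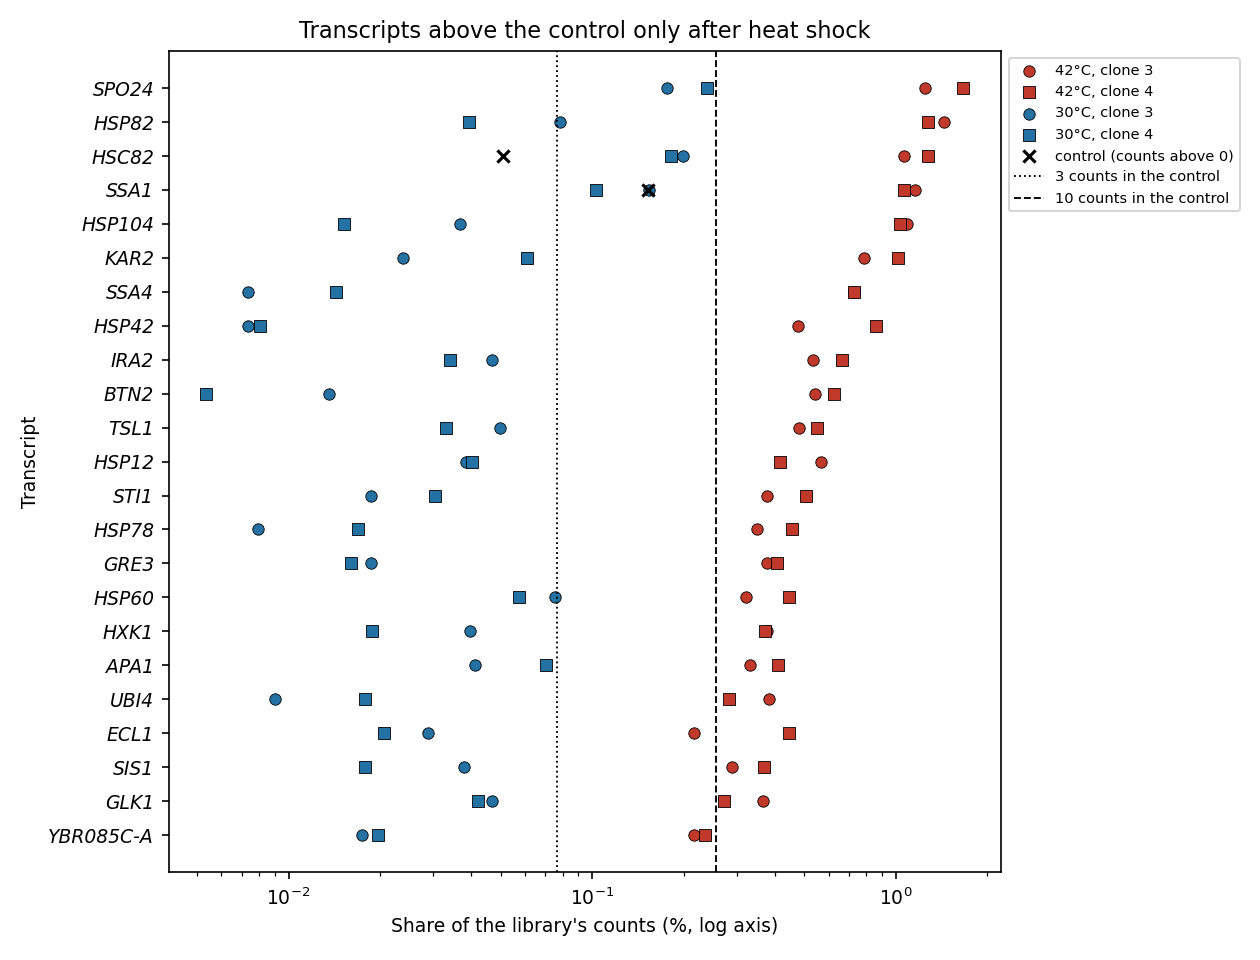
Share of each library's counts (horizontal, %, log axis) for the 23 transcripts above the control only after heat shock, ordered by mean share at 42°C. Red marks are 42°C and blue marks 30°C, circles clone 3 and squares clone 4, and black crosses the control where it had counts (HSC82 and SSA1). The dotted and dashed lines mark 3 and 10 control counts (0.0765% and 0.255%).

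The cytosolic Hsp90 and Hsp70 chaperones and the disaggregase Hsp104, which fold and rescue proteins during stress, all had members among the 23. HSP82, the heat-inducible Hsp90 (chromosome XVI, 96407 to 98681 on build sacCer3), had 2442 and 5264 counts in heat-shocked clones, 139 and 44 in unshocked clones and none in untagged cells. That is 1.44% and 1.27% of the counts at 42°C and 0.0785% and 0.0393% at 30°C, at least 17.7-fold above a control of 3 counts after heat shock (adjusted p = 0.00819). Its near-identical paralog HSC82, which is made at all temperatures, had 1807 and 5262 counts in heat-shocked clones, 352 and 203 in unshocked clones and 2 in untagged cells. The ratio of HSC82 at 42°C to the control was 22.9 (exact Poisson 95% interval 6.35 to 189, counting error only), and at 30°C it was 3.73 (1.03 to 30.8). The counting could have split reads between these 2 genes, so their separate values are uncertain. Between the temperatures, the log2 fold change was 4.51 (standard error 0.44) for HSP82 and 2.62 (0.32) for HSC82, and the difference between them was not tested.

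SSA1, a cytosolic Hsp70, had 1961 and 4409 counts in heat-shocked clones, 273 and 115 in unshocked clones and 6 in untagged cells. At 42°C its ratio to the control was 7.26 (exact Poisson 95% interval 3.34 to 19.8), and at 30°C it was 0.840 (0.386 to 2.29). SSA2, its near-identical and more constant paralog, had 1446 and 4069 counts in heat-shocked clones, 215 and 114 in unshocked clones and 11 in untagged cells and rose between the temperatures as well (log2 fold change 3.04, standard error 0.34). With 11 control counts, however, its ratio at 42°C was 3.27 (1.83 to 6.56) and it was not called against the control (adjusted p = 0.103). Reads of these 2 genes may also have been split. SSA4, the strongly heat-inducible Hsp70, had 1235 and 3013 counts in heat-shocked clones, 13 and 16 in unshocked clones and none in untagged cells and stood at least 9.52-fold above the control at 42°C. Both libraries at 42°C gave SSA4 nearly the same share, 0.728% in clone 3 and 0.729% in clone 4. SSA3 had 71 and 276 counts at 42°C and none in any other library, and its share stayed under the 3 counts that the control allows.

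HSP104 had 1846 and 4252 counts in heat-shocked clones, 65 and 17 in unshocked clones and none in untagged cells. After heat shock it was at least 13.8-fold above 3 control counts (adjusted p = 0.0120), and its log2 fold change over 30°C was 5.32 (standard error 0.50). HSP104 ranked 10 of 5090 by counts at 42°C and 557 at 30°C. STI1, the cochaperone that joins Hsp70 to Hsp90, had 638 and 2087 counts in heat-shocked clones, 33 and 34 in unshocked clones and none in untagged cells, and 39 nt of its interval overlap BUB3 on the same strand. SIS1, a J-domain cochaperone of Hsp70, had 491 and 1520 counts in heat-shocked clones, 67 and 20 in unshocked clones and none in untagged cells, with a bound of 4.29-fold at 3 counts that is below 1 at 3 fragments.

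Small heat shock proteins and sorting factors, which hold misfolded proteins in deposits or guard membranes, gave 3 of the 23. HSP42 had 806 and 3567 counts in heat-shocked clones, 13 and 9 in unshocked clones and none in untagged cells, with the largest log2 fold change over 30°C among the 23 (6.44, standard error 0.52). Its share in clone 4 at 42°C was above that in clone 3, with 0.475% in clone 3 and 0.863% in clone 4, and both were far above 0.00735% and 0.00805% at 30°C. BTN2, a factor that gathers aggregated proteins after heat stress, had 917 and 2585 counts in heat-shocked clones, 24 and 6 in unshocked clones and none in untagged cells (log2 fold change 5.88, standard error 0.54). HSP12, which encodes a small membrane-protecting protein and spans 574 nt as counted, had 958 and 1716 counts in heat-shocked clones, 68 and 45 in unshocked clones and none in untagged cells and, per length, ranked 8 at 42°C by TPM (counts per length scaled to a common sum), against 174 at 30°C. Its interval overlaps IES1 by 88 nt on the other strand, and no source used here states whether the counting used strand.

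HSP26, another small heat shock protein, rose over 30°C and was not called against the control. It had 762 and 2151 counts in heat-shocked clones, 32 and 12 in unshocked clones and 7 in untagged cells, a log2 fold change of 5.04 over 30°C (standard error 0.46, adjusted p = 0.00157). The 7 control counts put it at 2.72 times the control at 42°C (exact Poisson 95% interval 1.32 to 6.75, adjusted p = 0.362) and at 0.0807 times at 30°C (0.0392 to 0.201), where it was called lower than the control.

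Chaperones of the endoplasmic reticulum and of mitochondria were divided. KAR2, the Hsp70 of the endoplasmic reticulum, had 1334 and 4197 counts in heat-shocked clones, 42 and 68 in unshocked clones and none in untagged cells and stood at least 11.8-fold above the control at 42°C. HSP78, the mitochondrial relative of Hsp104, had 593 and 1879 counts in heat-shocked clones, 14 and 19 in unshocked clones and none in untagged cells, and over 30°C its log2 fold change was 5.04 (standard error 0.54). HSP60, the mitochondrial chaperonin, had 543 and 1833 counts in heat-shocked clones, 133 and 64 in unshocked clones and none in untagged cells and the smallest log2 fold change of the 23 (2.52, standard error 0.41). SSC1, the mitochondrial Hsp70, was above the control at 42°C with 453 and 1534 counts in heat-shocked clones, 196 and 136 in unshocked clones and none in untagged cells, but its log2 fold change of 1.46 between the temperatures was not called (standard error 0.39, adjusted p = 0.0722). HSP10, the partner of HSP60, went the other way against the control: it had 239 and 640 counts in heat-shocked clones, 25 and 13 in unshocked clones and 28 in untagged cells, so that it rose over 30°C (log2 fold change 3.51) and was still lower than the control at 42°C, with 0.207 times its share (0.143 to 0.312, adjusted p = 0.0301), a direction that turns under TMM.

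The lists show how the heat shock transcripts compared with the other members. Of all members, 1.15% were higher and 3.15% lower than the control at 42°C, and 0.394% and 0.952% at 30°C. For 42°C against 30°C, 2.95% were higher and 2.69% lower. Of the 6 heat shock transcripts that the study names from these libraries, a choice that is not independent of the data, 4 were higher than the control at 42°C, 0 at 30°C, and all 6 were higher at 42°C than at 30°C. Of 31 other chaperone and heat shock transcripts, 10 were higher and 2 (HSP10 and SSB1) lower than the control at 42°C, against 0 higher and 2 lower at 30°C, and 21 were higher at 42°C than at 30°C while 2 (SSB1 and SSB2) were lower. Under TMM, 5 of the 6 were above the control at 42°C and 0 at 30°C, and of the 31, 22 were above it and 0 below at 42°C, with 8 above and 1 below at 30°C. DESeq2 with its own size factors gave 6 and 0 for the 6, and 24 above at 42°C with 6 above at 30°C for the 31. The median log2 fold change between the temperatures was 5.71 for the 6 and 3.45 for the 31, against 0.36 over all 3046 members. With the control set to at least 3 counts for every transcript, the median log2 ratio of 42°C to the control was 2.99 for the 6 and 1.01 for the 31, against -3.05 over all members, a value that the limit of 3 counts sets for most of them. The 37 transcripts together held 13.0% and 14.5% of the counts at 42°C, 1.69% and 1.40% at 30°C, against 1.73% in the control (68 counts, exact Clopper-Pearson 95% interval 1.35 to 2.19%).

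**Figure D3:**
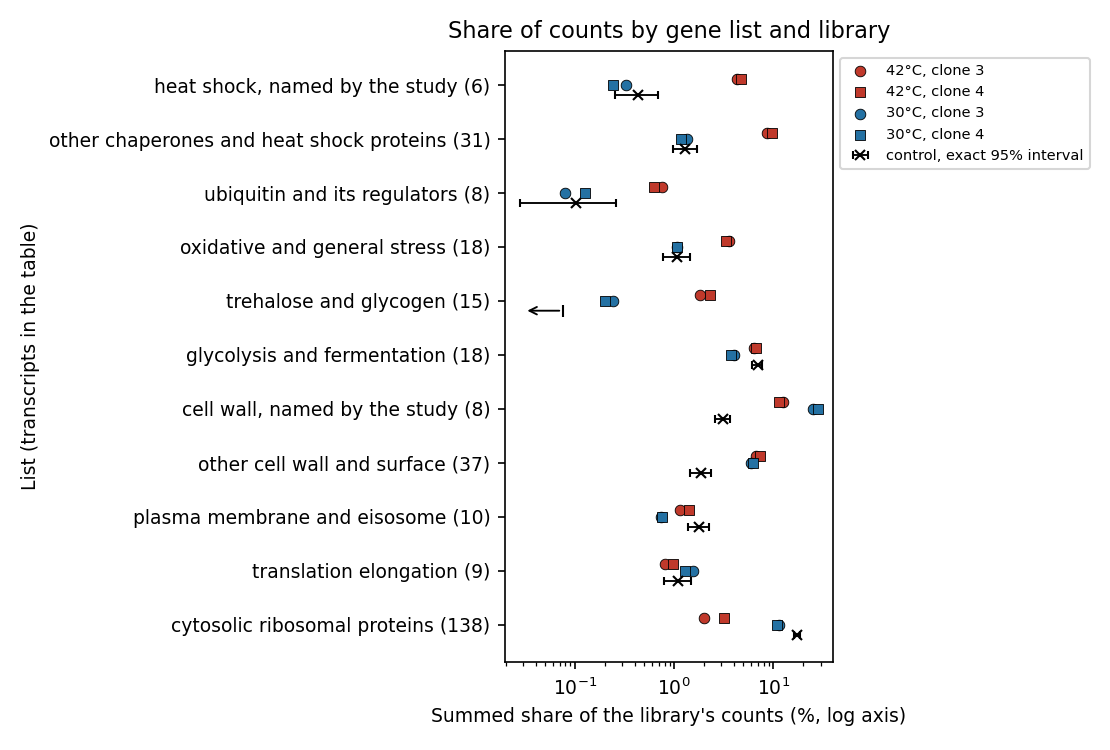
Summed share of each library's counts (horizontal, %, log axis) for each gene list, with the number of transcripts in the table in brackets. Red marks are 42°C, blue marks 30°C (circles clone 3, squares clone 4), and black crosses the control with exact Clopper-Pearson 95% intervals, an arrow marking the limit of 3 counts (0.0765%) for the list with no control counts. The heat shock list is at 4.34% and 4.74% at 42°C, the ribosomal proteins at 2.0% and 3.15%.

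Trehalose and glycogen metabolism, which stores the sugar that shields proteins from heat, had no counts in the control on any of its 15 listed transcripts. The list held 1.83% and 2.32% of the counts at 42°C and 0.239% and 0.201% at 30°C, and the control, with 0 of 3921 counts, allows up to 0.0765%. TSL1, the large regulatory subunit of trehalose synthase, was the only transcript of the list above the control by shares of totals (7 under TMM, 9 with DESeq2's own size factors), with 816 and 2271 counts in heat-shocked clones, 88 and 37 in unshocked clones and none in untagged cells and a bound of at least 6.73-fold. PGM2, a phosphoglucomutase on the route to trehalose and glycogen, had 829 and 3323 counts in heat-shocked clones, 57 and 8 in unshocked clones and none in untagged cells. Its clones were apart at 30°C (0.0322% and 0.00715% at 30°C), and it was not called against the control (adjusted p = 0.0560, or 1.93e-06 with the replicate block, 7.78e-10 to 0.142 over all alternative fits), although its share was at least 8.45-fold above 3 counts. TPS1, the synthase subunit, had 268 and 939 counts in heat-shocked clones, 62 and 34 in unshocked clones and none in untagged cells. TPS2, the phosphatase subunit, had 264 and 637 counts in heat-shocked clones, 50 and 54 in unshocked clones and none in untagged cells. Both rose between the temperatures and neither was called against the control (adjusted p = 0.0610 for TPS1, or 0.0209 with the replicate block, 0.00270 to 0.870 over all alternative fits; 0.102 for TPS2, or 0.0456 with the replicate block, 0.00465 to 0.870 over all alternative fits). In all, 6 of the 15 were higher at 42°C than at 30°C and 0 lower, against 2.95% and 2.69% of all members.

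Among sugar and stress enzymes, HXK1, a hexokinase, had 638 and 1535 counts in heat-shocked clones, 70 and 21 in unshocked clones and none in untagged cells, and GLK1, the glucokinase, had 617 and 1123 counts in heat-shocked clones, 83 and 47 in unshocked clones and none in untagged cells. UBI4, the stress-induced polyubiquitin gene, had 650 and 1164 counts in heat-shocked clones, 16 and 20 in unshocked clones and none in untagged cells, and its interval shares 70 nt with ENT4 on the same strand. Ubiquitin is also encoded by other genes with like sequence, to which the counting may have assigned some reads. GRE3, an aldose reductase induced by stress, had 637 and 1680 counts in heat-shocked clones, 33 and 18 in unshocked clones and none in untagged cells. At 42°C these transcripts stood at least 4.88-fold (HXK1), 4.15-fold (GLK1), 4.34-fold (UBI4) and 5.11-fold (GRE3) above 3 control counts. Of the 18 oxidative and general stress transcripts, 8 were higher at 42°C than at 30°C and 0 lower, and 2, GRE3 and the peroxiredoxin TSA1, were above the control at 42°C (14 under TMM and 14 with DESeq2's own size factors). Of all members, 2.95% were higher at 42°C than at 30°C and, by shares, 1.15% were above the control at 42°C. DDR2, a small stress protein, had 551 and 1091 counts in heat-shocked clones, 39 and 10 in unshocked clones and none in untagged cells and missed the threshold against the control (adjusted p = 0.0561, or 0.00236 with the replicate block, 0.000617 to 0.601 over all alternative fits).

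Glycolytic transcripts, which had many counts at both temperatures, also had many in the control. TDH3, a glyceraldehyde-3-phosphate dehydrogenase with near-identical paralogs, had 2919 and 8313 counts in heat-shocked clones, 1177 and 685 in unshocked clones and 44 in untagged cells. It rose between the temperatures (log2 fold change 1.55, standard error 0.28), but its 44 control counts left it at 1.66 times the control at 42°C (exact Poisson 95% interval 1.24 to 2.29, adjusted p = 0.510). Of the 18 listed transcripts, 3 were higher than the control at 42°C (FBA1, HXK1 and GLK1) and 2 lower (CDC19 and GPM1, whose fitted direction turns under TMM, without a call). Over all members the shares called were 1.15% higher and 3.15% lower. TMM gave 13 higher and 0 lower, and DESeq2 with its own size factors 14 and 0. Under TMM, TDH3, SSA2 and HSP26 were called higher than the control at 42°C. The list held 6.34% and 6.74% of the counts at 42°C, 4.03% and 3.77% at 30°C, against 6.94% in the control (6.16 to 7.78%).

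SPO24, which encodes a small protein linked to sporulation, had the highest share of the 23 and, per length, ranked 2 of all transcripts at 42°C by TPM. It had 2115 and 6901 counts in heat-shocked clones, 313 and 267 in unshocked clones and none in untagged cells. At 42°C it stood at least 19.1-fold above a control of 3 counts (adjusted p = 0.00653), and at 30°C at least 2.72-fold (adjusted p = 0.0514, or 0.00268 with the replicate block, 0.00189 to 0.995 over all alternative fits). The rule therefore counts SPO24 as above background only after heat shock by a narrow margin, while its log2 fold change over 30°C was 2.81 (standard error 0.34) and nearly the same in both clones. Its interval (chromosome XVI, 645875 to 646419) overlaps ERV2 by 51 nt on the other strand.

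IRA2, a regulator that switches Ras off, had 904 and 2744 counts in heat-shocked clones, 83 and 38 in unshocked clones and none in untagged cells. It is the longest of the 23 with 9390 nt, and per length it ranked 158 at 42°C by TPM although it ranked 20 by counts. The remaining transcripts fell outside the rule for named genes and are named here because they complete the 23, after their values were seen. APA1, a phosphorylase of dinucleoside polyphosphates, had 562 and 1690 counts in heat-shocked clones, 73 and 79 in unshocked clones and none in untagged cells. ECL1, linked to chronological lifespan, had 367 and 1841 counts in heat-shocked clones, 51 and 23 in unshocked clones and none in untagged cells, with the largest ratio between the clones at 42°C among the 23 (2.06, against a median of 1.24). YBR085C-A had 368 and 975 counts in heat-shocked clones, 31 and 22 in unshocked clones and none in untagged cells, the lowest share at 42°C of any transcript called without control counts.

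Some of these calls changed with the libraries or settings used. Fits without a 30°C clone left a single library in that group and took their spread from the 42°C clones alone. A call lost in them need not mean a smaller difference. Without 30°C clone 3, the log2 fold change over 30°C was 2.92 for GLK1 and 4.00 for ECL1, against 2.83 and 3.73 with both clones. For APA1 it was 2.39, against 2.73. Without 30°C clone 3, APA1, ECL1, GLK1, HSP60 and YBR085C-A no longer met the rule, and without 30°C clone 4, ECL1, GLK1, HSP60 and YBR085C-A did not. On counts divided by 4.31, the mean control count of rarely covered transcripts, only HSC82, HSP104, HSP82 and SPO24 met it. Under TMM, APA1, GLK1, HSC82, HSP12, HSP60, HSP82, IRA2, SPO24 and TSL1 were also above the control at 30°C, which left 14 of the 23.

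Members with a high share at 42°C and no control counts were not always called. The smallest called share was 0.226%, and 36 members without control counts were at or above it. Of the 90 members that rose between the temperatures, 23 were higher than the control, 1 (HSP10) was lower and 66 were not called against it. Among those 66, 58 had no control counts, and for 21 of these the share at 42°C was itself under the 3 counts that the control allows. For the other 37 it was above. CPR6, a cyclophilin partner of Hsp90, had 596 and 1538 counts in heat-shocked clones, 55 and 8 in unshocked clones and none in untagged cells and stood at least 4.73-fold above 3 counts without a call (adjusted p = 0.0919, or 0.000455 with the replicate block, 0.000120 to 0.392 over all alternative fits). HSP30, a plasma membrane heat shock protein, had 333 and 1137 counts in heat-shocked clones, 5 and 21 in unshocked clones and none in untagged cells (adjusted p = 0.223, or 0.00814 with the replicate block, 0.00233 to 0.870 over all alternative fits). The remaining 8 had control counts, and 6 of them were above the control's share at 42°C and 2 below it. HOR7, a small protein of the hyperosmotic response, had 904 and 2679 counts in heat-shocked clones, 134 and 158 in unshocked clones and 3 in untagged cells and was the nearest to a call (ratio 7.72, exact Poisson 95% interval 2.64 to 37.4, adjusted p = 0.0665, or 0.00500 with the replicate block, 4.33e-07 to 0.767 over all alternative fits); it was named after its values were seen.

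**Figure D4:**
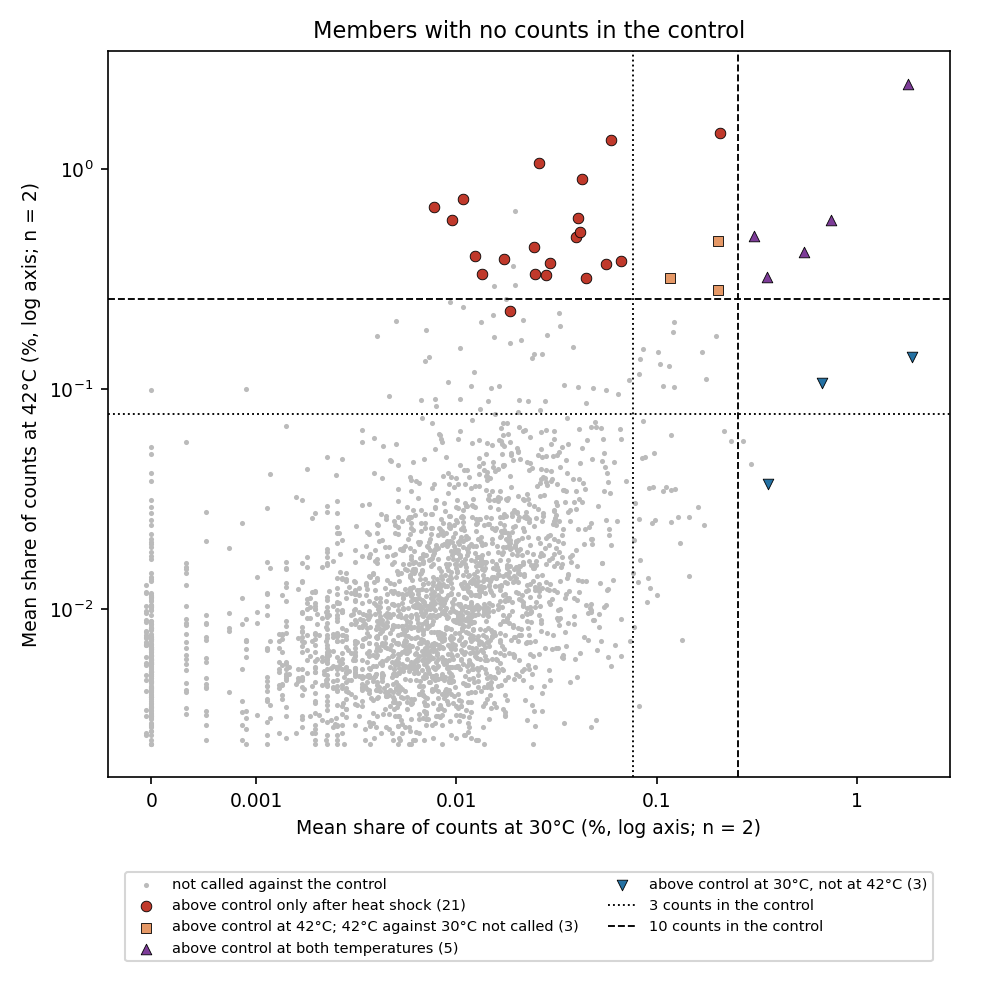
Mean share at 42°C (vertical) against mean share at 30°C (horizontal) for the 2589 members without control counts (%, log axes, n = 2 each, with a mean of 0 at 30°C drawn at the left edge). Dotted lines mark 3 control counts (0.0765%) and dashed lines 10 (0.255%). The 21 transcripts called only after heat shock lie above the dotted line at 42°C, and SPO24 is the only one to the right of it at 30°C.

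Several cell wall transcripts, the known targets of Ssd1, stood above the control at both temperatures. UTH1, a wall protein of the SUN family, had 7849 and 11169 counts in heat-shocked clones, 6956 and 4466 in unshocked clones and 9 in untagged cells, which is 16.0 times the control at 42°C (exact Poisson 95% interval 8.41 to 34.9) and 17.3 times at 30°C (9.09 to 37.8). Its share at 42°C differed between the clones, with 4.63% in clone 3 and 2.70% in clone 4. HSP150, a heat-inducible wall mannoprotein of the PIR family, had 4838 and 8336 counts in heat-shocked clones, 3196 and 2001 in unshocked clones and none in untagged cells, at least 31.8-fold above the control at 42°C and at least 23.5-fold at 30°C. Relative to 30°C its log2 fold change was 0.44 (standard error 0.28, adjusted p = 0.514), so that this heat shock gene was not among the 23. UTH1 and HSP150 were called at 42°C in every alternative fit.

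YKR041W had 1415 and 1375 counts in heat-shocked clones, 1319 and 827 in unshocked clones and none in untagged cells, and its interval shares 45 nt with UTH1 on the same strand. SIM1, another SUN family protein, had 860 and 2496 counts in heat-shocked clones, 4204 and 3393 in unshocked clones and 3 in untagged cells and was called at both temperatures although its share was lower at 42°C than at 30°C (log2 fold change -2.28, standard error 0.29). TSA1, SCW4 (a wall glucanase-like protein) and FBA1 (fructose-bisphosphate aldolase) complete the 7 called at both temperatures, with 0.537% and 0.451% of the counts at 42°C and 0.298% and 0.314% at 30°C for TSA1, 0.459% and 0.375% of the counts at 42°C and 0.531% and 0.554% at 30°C for SCW4 and 0.286% and 0.358% of the counts at 42°C and 0.350% and 0.358% at 30°C for FBA1. None of the 3 had a control count.

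A further 5 transcripts were called at 42°C and not at 30°C without a called difference between the temperatures. With the replicate block, 4 of them (CCW12, CWP2, BGL2 and CCW14) were called at 30°C as well. CCW12, the cell wall mannoprotein with most counts of all at 42°C, had 7308 and 25014 counts in heat-shocked clones, 9495 and 6373 in unshocked clones and 69 in untagged cells. Its 69 control counts are the most in that library, and its ratios to the control were 2.94 at 42°C (exact Poisson 95% interval 2.33 to 3.78) and 3.14 at 30°C (2.48 to 4.04). CWP2, another mannoprotein, had 1321 and 6793 counts in heat-shocked clones, 1452 and 872 in unshocked clones and 3 in untagged cells, a ratio of 15.8 (5.42 to 76.7) at 42°C. The glucanosyltransferase BGL2 and the wall protein CCW14 had log2 fold changes of 1.21 (standard error 0.39) and 0.47 (0.36) between the temperatures, and SSC1, given above, is the fifth.

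By shares of totals, 5 transcripts were called above the control at 30°C and not at 42°C, and all were lower at 42°C than at 30°C. The missing call at 42°C depends on the scaling: under TMM and with DESeq2's own size factors, all 5 were above the control at 42°C as well, while the difference between the temperatures was called under both. SUN4, the source of the probe above, had 1401 and 2827 counts in heat-shocked clones, 10898 and 6870 in unshocked clones and 19 in untagged cells, which is 1.56 times the control at 42°C (exact Poisson 95% interval 0.998 to 2.59) and 12.7 times at 30°C (8.13 to 21.1). CTS1, the chitinase that separates daughter cells, had 1147 and 2458 counts in heat-shocked clones, 5504 and 4037 in unshocked clones and 15 in untagged cells, with a ratio of 1.66 (1.01 to 2.97) at 42°C. DSE2, a daughter-specific wall enzyme, had 370 and 254 counts in heat-shocked clones, 3091 and 2244 in unshocked clones and none in untagged cells, and its clones were apart at 42°C, with 0.218% in clone 3 and 0.0614% in clone 4. AMN1, which acts in the exit from mitosis, had 245 and 279 counts in heat-shocked clones, 1226 and 719 in unshocked clones and none in untagged cells and BUD9, a bud site marker, 59 and 163 counts in heat-shocked clones, 761 and 322 in unshocked clones and none in untagged cells. With the replicate block DSE2 was called at 42°C too (adjusted p = 0.271, or 0.0495 with the replicate block, 0.000874 to 0.870 over all alternative fits). At 42°C, DSE2 and AMN1 were above the limit of 3 control counts (0.0765%) in clone 3 and under it in clone 4, where AMN1 had 0.0675%. A missing call does not show that a transcript was at the background.

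Of the 8 cell wall transcripts that the study names from these libraries, likewise not an independent choice, 4 were higher than the control at 42°C and 6 at 30°C, and 5 were lower at 42°C than at 30°C. Over all members, 1.15% were higher than the control at 42°C, 0.394% at 30°C, and 2.69% were lower at 42°C than at 30°C. Under TMM and with DESeq2's own size factors, all 8 were above the control at both temperatures, and 5 were again lower at 42°C than at 30°C. The 8 held 12.4% and 11.4% of the counts at 42°C, 25.4% and 28.0% at 30°C, against 3.11% in the control (exact Clopper-Pearson 95% interval 2.59 to 3.70%). Of 35 other wall and surface transcripts among the members, 4 were higher and 2 lower than the control at 42°C, against 1.15% and 3.15% of all members. TMM gave 12 higher and 0 lower, and DESeq2 with its own size factors 15 and 1. By shares, the lower ones were EGT2 and SCW10, a close relative of SCW4. SCW10 had 15 and 21 counts in heat-shocked clones, 285 and 209 in unshocked clones and 11 in untagged cells, so that it was at 0.0248 times the control at 42°C (0.0139 to 0.0497) and fell by 4.68 on the log2 scale between the temperatures (standard error 0.52).

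The 96 members below the control at 42°C had 5 to 67 control counts (median 11), and only 272 members had at least 5. Cytosolic ribosomal protein transcripts made up 35 of the 96. Of the 132 among the members, 0 were higher and 35 lower than the control at 42°C, 0 and 3 at 30°C, and 53 were lower at 42°C than at 30°C. Over all members, 3.15% were lower than the control at 42°C, 0.952% at 30°C, and 2.69% were lower at 42°C than at 30°C. Of the 132, however, 83 had control counts, against 457 of all 3046 members. No member with fewer than 5 was called lower at 42°C, so the share over all members is not a like comparison for these calls. Many of these genes have near-identical paralogs, among which the counting may have split reads. Over all 138 in the table, the summed share was 2.0% and 3.15% at 42°C, 11.5% and 10.8% at 30°C, against 17.4% in the control (683 counts, exact Clopper-Pearson 95% interval 16.2 to 18.6%). Under TMM, 5 of the 132 were higher and 0 lower at 42°C than in the control, and with DESeq2's own size factors 7 were higher and 2 lower. Most of the 132 were not called under either, so that the lower calls of this group depend on the scaling. Of all members with control counts, 411 of 457 had a lower share in both libraries at 42°C and 34 a higher share. These members are chosen by having a control count. In the control 3 counts are already 0.0765%, whereas the minimum of 10 counts is 0.0059% of clone 3 at 42°C. The choice itself thus favours a lower share at 42°C, and this split is no support for the lower calls.

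MDH2, the cytosolic malate dehydrogenase, had 62 and 192 counts in heat-shocked clones, 218 and 110 in unshocked clones and 67 in untagged cells, the second most control counts, and was at 0.0243 times the control at 42°C (0.0191 to 0.0313, called in every alternative fit). ASC1, a ribosome-bound scaffold, had 47 and 220 counts in heat-shocked clones, 222 and 118 in unshocked clones and 39 in untagged cells and was at 0.0407 times the control (0.0298 to 0.0572). The 5 largest fitted differences in this direction were those of RNR1, SRP40, SSK22, ISD11 and RPS22A, at between 0.0106 (SRP40) and 0.0161 (RPS22A) times the control, on 14 to 23 control counts each. RNR1, a subunit of ribonucleotide reductase, had 10 and 11 counts in heat-shocked clones, 53 and 87 in unshocked clones and 15 in untagged cells. RPS22A had only 6 counts in the deeper library at 42°C. Under TMM, MDH2 and RNR1 were still called lower than the control, and ASC1, SCW10, SRP40, SSK22, ISD11 and RPS22A were not.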

How the data were processed

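CRAC was carried out on Ssd1–HTP clones 3 and 4 at 42°C and 30°C and on untagged BY4741 at 30°C, 5 libraries in all. The authors trimmed and demultiplexed the reads, collapsed PCR duplicates, aligned them with Novoalign to a genome named sacCer3 in the submitters' processing notes and deposited counts per transcript, raw and without normalization, for 5090 transcripts (878 with default untranslated regions). A read in an overlap may count on both transcripts. All 5090 locus names matched symbols in RefSeq R64.

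Tests used edgeR 4.0.16 (R 4.3.3; glmQLFit and glmQLFTest on 5 libraries in 3 groups, library sizes equal to total counts, adjusted p under 0.05) for the 3046 transcripts that averaged 10 or more counts at 42°C. A standard error is the log2 fold change divided by the square root of F. Fitted folds against a control of 0 counts depend on the prior and are not given, and lower bounds use 3 counts instead. Exact intervals (scipy 1.17.1) cover counting error only and take counts as independent, so that they are too narrow if several counts came from the same fragment. The script was tested on simulated counts, drawn independently, in which the control had the same shares as the Ssd1–HTP libraries apart from the changes put in. That test does not show how the calls behave when several counts come from the same fragment or when the control differs in makeup. DESeq2 1.42.0, TMM, other count minimums and thresholds, the replicate block and leaving out each Ssd1–HTP library were alternatives.

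The members and gene lists were chosen with earlier results of these data known. Named were the 10 most counted transcripts at 42°C and in the control, the 10 called at 42°C with the largest fold change among those with control counts, the 10 called without control counts with the largest share, up to 15 called only after heat shock by share, up to 5 called lower, up to 5 called only at 30°C, members of the lists, SSD1 and the strain markers. The replicate numbers pair the libraries, since 1 number is 1 clone, which was cross-linked at both temperatures. Clone differences at 42°C and at 30°C were correlated with r = -0.01 across the 3046 transcripts, which are not independent. The control has no clone and takes no part in the pairing. Independent clones are the only replicates, and the p-values measure the spread between them.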

Additional observations from a re-analysis of the deposited data

Results flagged for a closer look

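A total of 28 transcripts were above the control at 1 temperature and not at the other, with a called difference between the temperatures (edgeR, adjusted p under 0.05 in each). For the 23 called only after heat shock, the log2 fold change of 42°C over 30°C was 6.44 for HSP42, 6.10 for SSA4, 5.88 for BTN2, 5.32 for HSP104 and 5.04 for HSP78. It was 4.65 for UBI4, 4.51 for HSP82, 4.48 for GRE3, 4.43 for KAR2 and 4.18 for STI1. Values of 3.88 for IRA2, 3.73 for ECL1, 3.66 for HXK1, 3.64 for HSP12, 3.63 for TSL1, 3.60 for YBR085C-A and 3.54 for SIS1 followed. The smallest were 3.11 for SSA1, 2.83 for GLK1, 2.81 for SPO24, 2.73 for APA1, 2.62 for HSC82 and 2.52 for HSP60. For the 5 called at 30°C and not at 42°C, it was -3.75 for DSE2, -3.27 for BUD9, -3.03 for SUN4, -2.66 for AMN1 and -2.40 for CTS1. Under TMM and with DESeq2's own size factors, these 5 were above the control at 42°C too. Of the 23, 14 under TMM and 19 with DESeq2's own size factors were still called only after heat shock. The rule that chose these transcripts uses the same contrast, so the values describe them. Whether mRNA levels at each temperature moved with these shares was not tested here, and no untagged library was made at 42°C. For heat shock proteins, the study reports a strong rise in mRNA and no enriched Ssd1 binding once that rise is allowed for.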

How the results depend on the processing

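Under TMM, 200 members were higher and 3 lower at 42°C than in the control, 103 higher and 1 lower at 30°C, and 56 only after heat shock (14 of the 23). DESeq2 with its own size factors gave 250 and 7, 80 and 4, 173 higher at 42°C than at 30°C, and 121 only after heat shock. DESeq2 on totals gave 193 lower at 42°C and 133 lower at 30°C than the control. A minimum mean of 50 left 863 transcripts, with 53 lower at 42°C, 25 higher at 30°C, 151 higher at 42°C than at 30°C and 35 only after heat shock. With no minimum, 72 were higher and 251 lower at 42°C than in the control, 32 and 172 at 30°C, 143 higher and 205 lower at 42°C than at 30°C, and 50 only after heat shock. The replicate block, which pairs the clones, gave 63 and 171 at 42°C against the control, 28 and 122 at 30°C, and 43 only after heat shock. Examined call by call were the 35 transcripts above the control at 42°C, the 5 farthest below it, the 12 above it at 30°C and the 28 called at 1 temperature with a difference between the temperatures. The block ended none of these 80 calls, added SPO24 at 30°C and added the calls given beside their transcripts above.

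Counts divided by 4.31, chosen after the data were seen, gave 6 higher and 30 lower at 42°C than in the control, 7 and 13 at 30°C, 163 and 165 at 42°C against 30°C, and 4 only after heat shock. At a threshold of 0.01, 5 were higher and 18 lower at 42°C than in the control, 3 and 2 at 30°C, 37 and 14 at 42°C against 30°C, and 3 only after heat shock. At 0.1 they were 53 higher at 42°C and 25 higher and 78 lower at 30°C than the control, 124 lower at 42°C than at 30°C, and 36 only after heat shock. Heat shock and chaperone transcripts above the control, 14 by shares, numbered 27 under TMM, 30 with DESeq2's size factors, 3 on divided counts and 2 at 0.01. Ribosomal protein transcripts below the control, 35 by shares, numbered 0, 2, 11 and 8 in the same settings, and 15 with a minimum of 50.

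Leaving out 1 Ssd1–HTP library gave 35 to 70 higher and 98 to 180 lower at 42°C than in the control, 4 to 41 and 2 to 163 at 30°C, 50 to 112 higher and 18 to 143 lower at 42°C than at 30°C, 21 to 47 only after heat shock and 31 to 55 ribosomal protein transcripts lower. The counts against the control were high without 42°C clone 3 or clone 4, and low at 30°C without 30°C clone 3 or clone 4. The lowest counts of 42°C against 30°C came without 30°C clone 3, and the highest lower count, like the most ribosomal calls, without 42°C clone 4. Without 42°C clone 3 or clone 4 the spread came from the 30°C clones alone, so that the higher counts are no sign of firmer calls. Without 30°C clone 3 or clone 4 it came from the 42°C clones alone, so that the smaller numbers of calls are no sign of weaker effects. The cause of these differences was not tested. The 80 calls listed kept their direction in the alternative fits. HSP10, CDC19 and GPM1, called below the control and not among them, turned under TMM. The fit of 3 libraries alone and the mean of 10 over 5 libraries moved no count of calls by over 1.5 times. The control cannot be left out, and its 3921 counts limit every comparison with it: 380 members had an unadjusted p under 0.05 at 42°C and 303 at 30°C. The search for motifs in upstream sequence was not run.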

Other observations

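Of 9 translation elongation transcripts, by shares of totals 0 were called against the control at either temperature (over all members, 1.15% were higher and 3.15% lower at 42°C) and 1 was lower at 42°C than at 30°C, and the group held 0.814% and 0.984% of the counts at 42°C, 1.57% and 1.29% at 30°C, against 1.10% in the control (exact Clopper-Pearson 95% interval 0.795 to 1.47%). Under TMM and with DESeq2's own size factors, 5 of the 9 were above the control at 42°C and 5 at 30°C. TEF1 and TEF2, which encode the same elongation factor and whose reads may have been split, had 314 and 957 counts in heat-shocked clones, 465 and 254 in unshocked clones and 7 in untagged cells for TEF1 and 336 and 989 counts in heat-shocked clones, 398 and 260 in unshocked clones and 28 in untagged cells for TEF2. In both clones, the share of TEF2 at 42°C was below its share in the control. TEF2 was not called against the control at 42°C (adjusted p = 0.0665, or 0.0318 with the replicate block, 0.000927 to 0.669 over all alternative fits, edgeR). Of 10 plasma membrane and eisosome transcripts, 0 were higher and 1 (SUR7) was lower than the control at 42°C by shares, but 5 were higher and 0 lower under TMM and 6 and 0 with DESeq2's own size factors, and 1 (LSP1, an eisosome core component) rose between the temperatures, with 167 and 418 counts in heat-shocked clones, 48 and 18 in unshocked clones and 15 in untagged cells. The group held 1.15% and 1.40% of the counts at 42°C, 0.730% and 0.753% at 30°C, against 1.79% in the control (1.39 to 2.25%). A lower share at 42°C than in the control was also seen for PCL5, in both clones. PCL5, a cyclin that targets the transcription factor Gcn4, had 670 and 1112 counts in heat-shocked clones, 486 and 380 in unshocked clones and 44 in untagged cells, the same number in the control as TDH3, and was not called at 42°C (adjusted p = 0.0581, or 0.00800 with the replicate block, 6.92e-06 to 0.249 over all alternative fits, edgeR).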
